A study of Sus scrofa with 12 samples.

Results

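Ischemic and control mucosa of the neonatal jejunum were compared in 6 of the 12 RNA libraries of the series, chosen by their labels as all libraries from pigs aged 2 wk. The 3 control libraries (A, C and D) and the 3 ischemic libraries (A, C and D) came from scrapings of the mucosa of the distal jejunum of Yorkshire cross pigs. In anesthetized pigs, loops of jejunum were made ischemic for 30 min by tying off the local mesenteric vessels, and neighboring loops that kept their blood supply gave the control tissue, so that control tissue had also been exposed to anesthesia and surgery. The study used pigs of either sex and asked how the mucosa of neonatal and juvenile pigs responds to ischemic injury. The other 6 libraries, from juvenile pigs aged 6 wk, helped decide which genes were measured well enough to test and served to test where the neonatal change differed. Each group of libraries stood for 3 pigs, but the sources do not state whether control and ischemic libraries of one letter came from the same pig. The libraries called C here carry that letter in their description and in the count table but the letter B in their title.

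Loss of blood flow deprives the villus of oxygen and nutrients, and the epithelium at the villus tip is the first part of the mucosa to detach. Cells that lose oxygen stabilize hypoxia-inducible factors (HIFs), which raise transcripts of glycolysis and of angiogenesis, while stress kinases induce immediate early genes such as FOS and EGR1 within minutes. Repair of the exposed surface begins with restitution, in which neighboring enterocytes flatten and crawl over the basement membrane with the help of integrins, the actin cytoskeleton and signals from cells of the lamina propria. In scrapings of mixed cells, fewer cells of a type and less RNA per cell cannot be told apart.

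The libraries differed widely in depth. Reads counted on genes numbered 9913462, 6497353 and 2045483 in control libraries A, C and D and 5177227, 1652066 and 12116480 in ischemic libraries A, C and D. Each group therefore held 1 shallow library, control D and ischemic C. The smallest level that could be told from 0, set at 3 counts, was 0.248 CPM (counts scaled to library size) in ischemic library D and 1.82 CPM in ischemic library C. These limits cover counting error only. In control library D, 39.8% of reads mapped to several places, whereas the other neonatal libraries had between 6.86% and 11%. CPM values of genes are from here on scaled by TMM factors, which correct for differences in library composition. The enterocyte gene ANPEP, which encodes the brush border enzyme aminopeptidase N, was measured at 1400.4, 1288 and 1193 CPM in control libraries A, C and D and 679, 1127 and 2357 CPM in ischemic libraries A, C and D, so the scrapings held epithelium in every library.

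No gene passed the test for a difference between ischemic and control mucosa of neonates. Of 14191 genes tested, which had over 1 CPM in 2 or more of the 12 libraries, 0 reached a Benjamini-Hochberg adjusted p under 0.05 in edgeR's quasi-likelihood test, and DESeq2 also called 0. An unadjusted p under 0.05 was found for 327 genes (2.3%), 89 higher (0.627%) and 238 lower (1.68%) in ischemic mucosa, and DESeq2 placed 282 genes there. The adjusted p of every gene was 1, so single genes below are given with their fold change and its standard error (SE). The count rested on single libraries, being 104 without control C, 118 without ischemic A, 538 without control A, 844 without ischemic C and 926 without control D. All 3 ischemic libraries lay on one side of all 3 control libraries for 862 genes (6.07%), 478 higher (3.37%) and 384 lower (2.71%). With libraries assigned to the groups at random, 10% of genes would be separate in this way. The log2 fold changes of all genes tested had a median of -0.0155, and those between the lowest and the highest twentieth lay between -0.942 and 0.582.

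Among genes with a symbol and a mean of at least 5 CPM whose groups did not overlap, the 10 with the smallest p in each direction were taken as the genes that differed most evenly between the groups. None of them passed the adjusted threshold. Those higher in ischemic mucosa included 2 core histone genes of the H2B type, genes of dividing cells and genes of immune cells. CEP85 (chr6:83651011-83689074, Sscrofa11.1), which encodes a centrosomal protein, was measured at 34.9, 23.2 and 35.2 CPM in control libraries A, C and D and 70.1, 49.2 and 53.4 CPM in ischemic libraries A, C and D. Every ischemic library lay above every control library, with a log2 fold change of 0.90 ± 0.28 (SE). KIF18B, a kinesin of the mitotic spindle, had 37.9, 26.5 and 36.9 CPM against 62.3, 53.5 and 53.5 CPM in the same order and a log2 fold change of 0.75 ± 0.26. E2F8 (chr2:40178182-40194932), an atypical E2F factor that represses cell cycle genes, had 104, 86.1 and 92.7 CPM against 199, 150.1 and 122 CPM, a log2 fold change of 0.73 ± 0.26. In all 3 of these genes ischemic library A was the highest of the 6 libraries.

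A pair of these genes acts in immune cells. DOK3, an adaptor protein of immune receptor signaling, was at 17.6, 19.3 and 19.5 CPM in control libraries A, C and D and 30.7, 30.8 and 38.1 CPM in ischemic libraries A, C and D. The 3 control libraries lay close together, well below the lowest ischemic library, and the log2 fold change was 0.83 ± 0.26. IL4I1, a secreted amino acid oxidase of antigen-presenting cells, had 18.8, 17.3 and 23.3 CPM against 37.1, 30.1 and 38.6 CPM and a log2 fold change of 0.86 ± 0.27. The remaining genes were ARMC7, ATXN7L2 and RIC3, a chaperone of nicotinic acetylcholine receptors, with log2 fold changes between 0.88 and 1.0.

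Of the 10 genes lower in every ischemic library that were picked in this way, TSPAN6 (chrX:82323634-82328919), a tetraspanin of the cell membrane, was among the most even, at 117, 104 and 113 CPM in control libraries A, C and D and 65.0, 66.4 and 74.8 CPM in ischemic libraries A, C and D. Each group was tight and the groups lay well apart, with means of 111 ± 6.95 CPM in control and 68.7 ± 5.32 CPM in ischemic mucosa (SD, n = 3) and a log2 fold change of -0.69 ± 0.23. REG4 (chr4:101337295-101354550), a secreted lectin of intestinal secretory cells, was at 72.0, 98.9 and 60.7 CPM in control libraries A, C and D and 37.3, 45.5 and 41.8 CPM in ischemic libraries A, C and D. All 3 ischemic libraries were lower than the lowest control library, D, and the log2 fold change was -0.90 ± 0.26. DLL1, the Notch ligand that marks secretory progenitors of the crypt, had 15.1, 24.9 and 14.1 CPM against 6.60, 10.5 and 9.25 CPM in the same order and a log2 fold change of -1.07 ± 0.35. Control library C was the highest of the 6 in both REG4 and DLL1.

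Other genes of this group act in uptake and in cell contact. The nucleoside transporter SLC28A3 was at 11.1, 17.3 and 12.5 CPM in control libraries A, C and D and 7.01, 7.38 and 4.67 CPM in ischemic libraries A, C and D, with a log2 fold change of -1.15 ± 0.36. Library C was the highest of each group, and the groups did not overlap. ITGA11, an integrin of fibroblasts that binds collagen, had 6.90, 19.6 and 6.51 CPM against 2.68, 5.54 and 3.24 CPM and a log2 fold change of -1.65 ± 0.53, which was -0.908 without control C. APCDD1, an inhibitor of Wnt signaling, F2RL2, a thrombin receptor, GPR171 and HOXD8 had log2 fold changes between -1.35 and -1.02. The plot of these genes by library gives the gap between the groups for each of them.

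**Figure D1:**
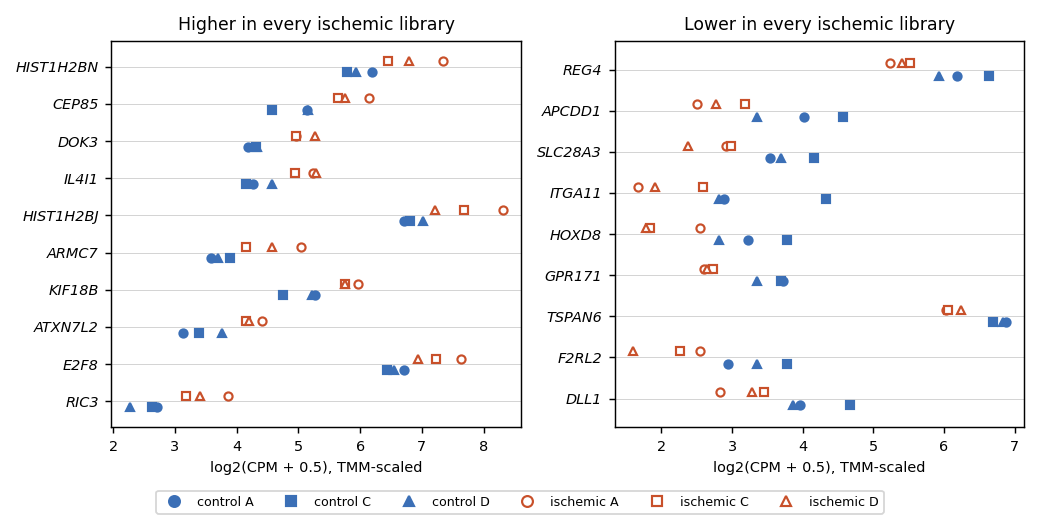
Expression of the genes with the smallest p in each direction among those whose neonatal groups did not overlap, as log2(CPM + 0.5) on the horizontal axis. Each symbol is 1 library (filled blue, control; open orange, ischemic; circle, square and triangle, replicates A, C and D). All ischemic symbols lie on one side of the control symbols, which is how the genes were chosen, and none of the genes passed the adjusted threshold.

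When the genes tested were grouped by the letters that open their symbol, a rule set after values had been seen, 169 families had at least 10 members, and the HIST genes had the highest and the HOX genes the lowest median log2 fold change. Histones package DNA, and their main transcripts are made during DNA replication and end without a poly(A) tail. All 14 members named HIST were higher in ischemic mucosa, with a median log2 fold change of 0.89, where 47.9% of all genes were above 0 and 52% below. Of these, 5 had an unadjusted p under 0.05 (0.627% of all genes, in that direction) and 2 had groups that did not overlap (3.37%), HIST1H2BN and HIST1H2BJ. HIST1H2BN was at 72.5, 54.9 and 60.7 CPM in control libraries A, C and D and 161, 86.7 and 109.9 CPM in ischemic libraries A, C and D (log2 fold change 0.93 ± 0.28). HIST1H2BJ was at 104, 112 and 129 CPM in control libraries A, C and D and 316, 204 and 147 CPM in ischemic libraries A, C and D (log2 fold change 0.95 ± 0.31). In both, ischemic library A was the highest and every ischemic library lay above every control library. For a family or list of genes, the score of a library is the mean over members of log2 CPM relative to the mean of the 6 libraries, and the scores of the histone family were -0.72, -0.49 and 0.046 in control libraries A, C and D and 1.2, 0.20 and -0.25 in ischemic libraries A, C and D, so the groups overlapped. Without ischemic library A the median was 0.39 12 of the 14 members were higher and none had an unadjusted p under 0.05. Histone genes have near-identical copies, so reads could be split between them and the value of any single histone gene is uncertain.

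HOX genes encode the transcription factors that give the gut its position along the body axis, and in the adult intestine many are expressed in the mesenchyme. Of the 18 HOX genes tested, 17 were lower in ischemic mucosa, with a median log2 fold change of -0.90. An unadjusted p under 0.05 was found for 6 of them (1.68% of all genes were lower at that level), and the groups did not overlap for 3 (2.71%), HOXD8, HOXB7 and HOXB9. The latter pair was chosen after its values were seen. HOXD8 was at 8.88, 13.2 and 6.51 CPM in control libraries A, C and D and 5.36, 3.08 and 2.93 CPM in ischemic libraries A, C and D (log2 fold change -1.34 ± 0.43). HOXB7 was at 7.65, 9.01 and 26.6 CPM in control libraries A, C and D and 3.09, 6.77 and 4.03 CPM in ischemic libraries A, C and D (log2 fold change -1.65 ± 0.55). Control D was the highest library for HOXB7 and the lowest control for HOXD8, so the order of the control libraries was not shared. The family scores were 0.00085, 0.66 and 0.34 in control libraries A, C and D and -0.57, 0.30 and -0.73 in ischemic libraries A, C and D, with control C highest and ischemic D lowest, and the median was -0.58 without control C and -1.42 without ischemic C. HOX genes lie in tight clusters that include antisense transcripts, and whether the counting used strand is not stated, so reads of overlapping transcripts cannot be told apart.

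Immediate early and feedback genes, which respond to stress within minutes, did not move together. Of the 43 members tested, 17 were higher and 26 lower in ischemic mucosa, with a median log2 fold change of -0.11. At an unadjusted p under 0.05 there was 1 member, EGR3 (2.3% of all genes). Without control D the median was 0.14. FOS, a subunit of the AP-1 transcription factor, was at 26.1, 27.3 and 117 CPM in control libraries A, C and D and 55.9, 33.8 and 21.0 CPM in ischemic libraries A, C and D. The groups overlapped, since control D was the highest library and ischemic D the lowest, and the log2 fold change was -0.58 ± 0.62. EGR1, a zinc finger factor induced by growth factors and stress, was at 31.7, 32.5 and 58.0 CPM in control libraries A, C and D and 52.8, 40.0 and 27.4 CPM in ischemic libraries A, C and D and gave a log2 fold change of -0.0083 ± 0.34. JUN, the partner of FOS, was at 107, 151 and 429.9 CPM in control libraries A, C and D and 257, 188 and 101 CPM in ischemic libraries A, C and D, again with control D highest and ischemic D lowest. PPP1R15A, the stress-induced subunit that restarts translation, had the same highest and lowest libraries, with 27.3, 25.7 and 98.7 CPM against 52.4, 35.1 and 22.1 CPM in the order A, C and D. The groups did not overlap for 2 members (6.07% of all genes), 1 in each direction. EGR3, a relative of EGR1, was at 4.91, 5.29 and 3.25 CPM in control libraries A, C and D and 9.08, 12.3 and 6.57 CPM in ischemic libraries A, C and D, where each ischemic library was above each control library and the log2 fold change was 0.96 ± 0.40. DUSP6, a phosphatase that dampens ERK signalling, was at 59.7, 38.6 and 41.7 CPM in control libraries A, C and D and 34.0, 19.1 and 37.4 CPM in ischemic libraries A, C and D, where each ischemic library was below each control library and the log2 fold change was -0.61 ± 0.32. As a score, the list was highest in control D and lowest in ischemic D, at -0.13, -0.092 and 0.35 against 0.10, 0.048 and -0.27 for the 3 control and the 3 ischemic libraries.

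The regulators of the response to hypoxia differed little between the groups. HIF1A, which encodes the oxygen-regulated subunit of HIF-1, was at 442, 280.1 and 267 CPM in control libraries A, C and D and 309, 332 and 293 CPM in ischemic libraries A, C and D (log2 fold change -0.084 ± 0.29). EPAS1, the HIF-2 subunit expressed in endothelium and epithelium, was at 106, 196 and 95.4 CPM in control libraries A, C and D and 67.7, 113 and 84.0 CPM in ischemic libraries A, C and D (log2 fold change -0.60 ± 0.33), with control C highest. HIF subunits are regulated mainly as proteins, which these data do not measure. Of 27 HIF targets outside glycolysis, 20 were lower and 7 higher, at a median log2 fold change of -0.21, and none had an unadjusted p under 0.05 in edgeR's test. Their score was 0.080, 0.34 and -0.054 in control libraries A, C and D and -0.16, -0.10 and -0.11 in ischemic libraries A, C and D, so every ischemic library lay below every control library. The 3 most abundant targets, BHLHE40, KDM3A and BNIP3L, had log2 fold changes of -0.29 ± 0.26, -0.16 ± 0.30 and -0.34 ± 0.25. VEGFA, the main angiogenic growth factor and chosen after its values were seen, was at 30.0, 44.5 and 65.1 CPM in control libraries A, C and D and 80.9, 56.6 and 31.6 CPM in ischemic libraries A, C and D, so that ischemic A was the highest and control A the lowest library and the groups overlapped (log2 fold change 0.29 ± 0.39).

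Genes of glycolysis and the nuclear genes of respiration were evenly divided. The 24 glycolysis genes were divided into 12 higher and 12 lower, at a median log2 fold change of 0.013, and GAPDH was at 961, 716 and 824 CPM in control libraries A, C and D and 841, 872 and 1305 CPM in ischemic libraries A, C and D. Of 49 nuclear genes of the respiratory chain, 24 were higher and 25 lower. The 13 transcripts of the mitochondrial genome had scores of -1.70, 0.58 and 0.43 in control libraries A, C and D and 0.58, 0.62 and -0.50 in ischemic libraries A, C and D, so control library A stood below the other 5 and the list varied more between replicates than between groups. Of its members 11 were higher and 2 lower, and its median log2 fold change was 0.19, and -0.21 without control A. Heat shock chaperones, which refold damaged proteins, leaned upward. Of 24 members tested, 21 were higher in ischemic mucosa, at a median log2 fold change of 0.23, and 3 had groups that did not overlap (3.37% of all genes, in that direction), STIP1, DNAJB1 and HSPE1, which were chosen after their values were seen. None had an unadjusted p under 0.05. HSPA8, the constitutive HSP70, was at 1553, 1716 and 1283 CPM in control libraries A, C and D and 2135, 1599 and 2129.6 CPM in ischemic libraries A, C and D (log2 fold change 0.36 ± 0.33). Ischemic library A had the highest score of the list, and the median was 0.036 without it. The plot of early and hypoxia genes shows the same overlap gene by gene.

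**Figure D2:**
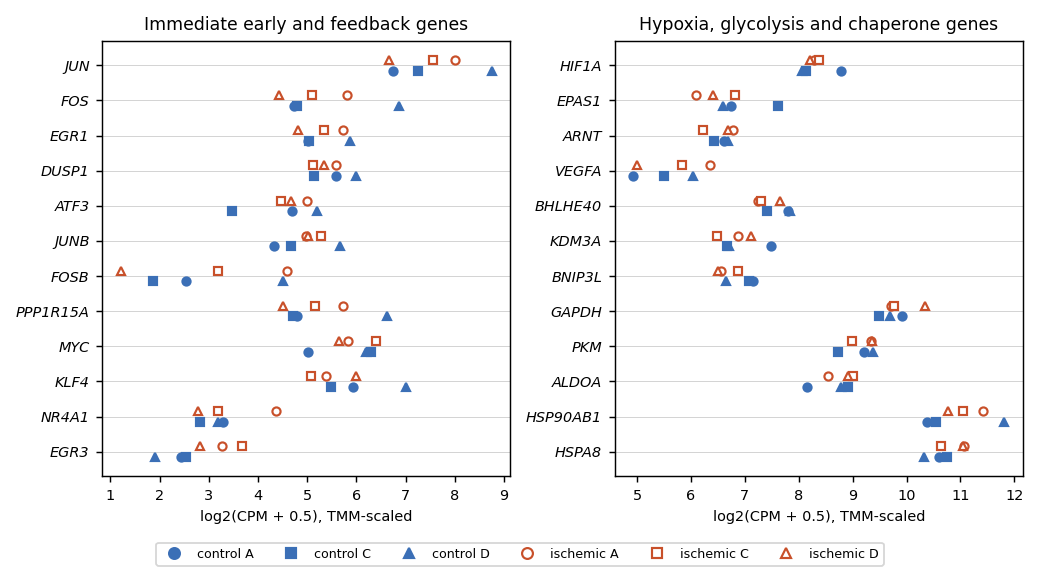
Immediate early and feedback genes (left) and genes of hypoxia, glycolysis and protein folding (right) in the 6 neonatal libraries, as log2(CPM + 0.5). Each symbol is 1 library (filled blue, control; open orange, ischemic; circle, square and triangle, replicates A, C and D). Of the genes drawn, only EGR3 had ischemic symbols that all lay on one side of the control symbols.

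Genes of the absorptive epithelium were slightly lower in ischemic mucosa, and for 3 of 4 lists the difference of the score was smaller than its SD between replicates, endocytosis and lysosomes being the exception. Median log2 fold changes were -0.16 for 16 brush border hydrolases, -0.13 for 32 transporters, -0.13 for 29 genes of fat absorption and -0.27 for 28 genes of endocytosis and lysosomes, by which the suckling enterocyte takes up milk protein. No member of these 4 lists had an unadjusted p under 0.05. Without ischemic D the medians were -0.54, -0.41, -0.36 and -0.36 in that order. Without ischemic A that of the hydrolases was -0.0055 and that of the transporters -0.064, and without control A that of fat absorption was -0.013. SI, which encodes sucrase-isomaltase, was at 569.8, 740.1 and 499 CPM in control libraries A, C and D and 300.3, 456 and 879 CPM in ischemic libraries A, C and D, with ischemic A lowest and ischemic D highest of all 6. APOB, the core protein of chylomicrons, was at 4323, 1678 and 2891 CPM in control libraries A, C and D and 2312, 2033 and 2908 CPM in ischemic libraries A, C and D, with control A highest. CUBN, the endocytic receptor cubilin, was at 525, 530.4 and 554 CPM in control libraries A, C and D and 238, 359.8 and 679 CPM in ischemic libraries A, C and D and had the same lowest and highest libraries as SI. For SI and CUBN both ends of the range thus lay within the ischemic group. Ischemic D also held the most REG3G, an antimicrobial lectin, at 9.45, 59.2 and 329 CPM in control libraries A, C and D and 7.43, 68.9 and 1235 CPM in ischemic libraries A, C and D.

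Junction and matrix-contact genes leaned lower. All 8 claudins tested, the proteins that seal or open the paracellular path, were lower, but with a median of -0.16, against a within-group SD of 0.47 for their score. The direction of the claudins rested on 1 library, since the median was 0.038 without ischemic A and -0.64 without ischemic D. CLDN7 was at 58.7, 60.1 and 35.2 CPM in control libraries A, C and D and 25.8, 33.8 and 93.1 CPM in ischemic libraries A, C and D, with ischemic libraries at both ends of the range. Of 32 other junction genes, 26 were lower (median -0.18, and -0.064 without ischemic A), and 2 had an unadjusted p under 0.05 (1.68% of all genes, in that direction), GJA1 and JAM2. GJA1, which encodes connexin 43 of gap junctions, was at 115, 203 and 67.2 CPM in control libraries A, C and D and 38.8, 88.6 and 57.3 CPM in ischemic libraries A, C and D (log2 fold change -1.08 ± 0.42). The groups overlapped, because ischemic C exceeded control D. JAM2, an adhesion molecule of endothelium, had 12.5, 18.4 and 8.13 CPM against 5.16, 8.61 and 4.43 CPM and a log2 fold change of -1.21 ± 0.42, with ischemic C again above control D. Integrins, which tie cells to the matrix, were 1 of 2 lists among 45 whose scores did not overlap, fewer than the 10% that random assignment of libraries would give. Their scores were 0.10, 0.47 and -0.028 in control libraries A, C and D and -0.42, -0.037 and -0.083 in ischemic libraries A, C and D. Of 24 integrin genes, 17 were lower, 2 of them with an unadjusted p under 0.05 (1.68% of all genes), ITGA11 and ITGB3. The median log2 fold change was -0.33, and -0.17 without control C, and ITGB3 was at 30.9, 43.8 and 21.1 CPM in control libraries A, C and D and 13.4, 25.8 and 17.0 CPM in ischemic libraries A, C and D (log2 fold change -0.82 ± 0.36), with ischemic C above control D. ITGB1, the beta subunit that most collagen and laminin receptors share, was at 313, 579.8 and 331 CPM in control libraries A, C and D and 284, 505 and 317 CPM in ischemic libraries A, C and D, with control C highest and a log2 fold change of -0.15 ± 0.35.

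The machinery of cell crawling was near no change as a list. The 53 genes of actin and the lamellipodium had a median log2 fold change of -0.067, and the cytoskeletal actin ACTB was at 8188, 6966 and 7474 CPM in control libraries A, C and D and 7090.1, 7386 and 8644 CPM in ischemic libraries A, C and D. NCKAP1 and CYFIP1 (ENSSSCG00000031951 in the table), both subunits of the WAVE complex that starts branched actin at the leading edge, were lower in each ischemic library. NCKAP1 was at 281, 269 and 196 CPM in control libraries A, C and D and 138, 188 and 166 CPM in ischemic libraries A, C and D (log2 fold change -0.60 ± 0.27). CYFIP1 had 17.2, 18.6 and 15.7 CPM against 7.84, 10.5 and 13.1 CPM (log2 fold change -0.71 ± 0.31). Growth factors and receptors of epithelial repair were lower in 25 of 30 cases (median -0.41), 3 with an unadjusted p under 0.05 (1.68% of all genes), HGF, MET and GDNF. The median was -0.20 without control C, -0.26 without ischemic A and -0.69 without ischemic C. HGF, the mesenchymal factor that drives epithelial migration, was at 5.20, 10.9 and 4.34 CPM in control libraries A, C and D and 2.89, 4.31 and 1.5 CPM in ischemic libraries A, C and D (log2 fold change -1.43 ± 0.55). Its epithelial receptor MET was at 39.5, 26.6 and 30.4 CPM in control libraries A, C and D and 15.5, 20.9 and 24.0 CPM in ischemic libraries A, C and D (log2 fold change -0.68 ± 0.30). For both ligand and receptor every ischemic library lay under every control library, although HGF was nearly equal in ischemic C and control D, the shallow libraries.

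The medians of the crypt and the proliferation lists lay on opposite sides of 0. Of 14 crypt stem and progenitor genes 11 were lower (median -0.50, and -0.22 without control C), and OLFM4, a marker of crypt base cells, was at 1063, 1918 and 781 CPM in control libraries A, C and D and 326, 970.0 and 997 CPM in ischemic libraries A, C and D (log2 fold change -0.72 ± 0.48). PROM1, a membrane protein of crypt progenitors, was the only member with an unadjusted p under 0.05 (1.68% of all genes, in that direction), with 17.6, 39.2 and 18.4 CPM against 6.60, 22.1 and 8.15 CPM and a log2 fold change of -1.14 ± 0.50. Of 17 proliferation genes 16 were higher (median 0.34), none with an unadjusted p under 0.05. MKI67, the antigen of cycling cells, was at 1512, 1198 and 2702 CPM in control libraries A, C and D and 4045, 2506 and 1972 CPM in ischemic libraries A, C and D (log2 fold change 0.66 ± 0.44). The highest value was that of ischemic A, and control D exceeded ischemic C and D. Control library C had the lowest proliferation score, -0.69, and the median of the list was 0.14 without it. The same median was 0.17 without ischemic A and 0.55 without control A.

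Genes of the lamina propria had large differences between the groups and a large spread within them. Fibroblast genes were lower in ischemic mucosa for 15 of 15 members, at a median log2 fold change of -0.85, and 3 had an unadjusted p under 0.05 (1.68% of all genes in that direction), DCN, BMP5 and F3. The scores of the list were 0.15, 1.35 and -0.070 in control libraries A, C and D and -1.17, 0.65 and -0.92 in ischemic libraries A, C and D. Control C lay far above the other 5 libraries and ischemic C was second, so the groups overlapped, although for each letter the ischemic library scored below the control library. COL3A1, a fibrillar collagen, was at 686, 1924 and 679.9 CPM in control libraries A, C and D and 351, 1258 and 226 CPM in ischemic libraries A, C and D (log2 fold change -0.85 ± 0.67). Over the alternative settings, which include leaving out each library, its fold change ran from -1.95 to -0.162. That of COL1A1, of the same list, was -0.418 and ran from -1.69 to 0.423. DCN, the small proteoglycan decorin, was at 111, 157 and 62.9 CPM in control libraries A, C and D and 22.1, 92.9 and 32.6 CPM in ischemic libraries A, C and D (log2 fold change -1.22 ± 0.54), with ischemic C above control D. BMP5, a morphogen of the villus mesenchyme, had 35.2, 60.9 and 15.2 CPM against 11.1, 26.4 and 16.0 CPM (log2 fold change -1.12 ± 0.49). Of the 3, only F3, which encodes tissue factor, had groups that did not overlap (2.71% of all genes in that direction), at 17.9, 21.2 and 24.9 CPM in control libraries A, C and D and 9.70, 10.5 and 14.4 CPM in ischemic libraries A, C and D (log2 fold change -0.85 ± 0.31). The median of the fibroblast list was -0.29 without control C and -1.69 without ischemic C.

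Genes of vessels and muscle shared the order control C, ischemic C, control A and control D of the fibroblast scores, with ischemic A and D below. All 14 blood endothelial genes, all 6 lymphatic endothelial genes and all 17 smooth muscle and pericyte genes tested were lower, with medians of -0.65, -0.90 and -0.70. The most abundant genes moved less. MYH11, the most abundant of the muscle list, had a log2 fold change of -0.065, and over the alternative settings -0.51 to 0.347. PLVAP, the most abundant of the blood endothelial list, had -0.605, and over these settings -1.15 to 0.0805. KDR, the main VEGF receptor of endothelium, was at 53.4, 89.1 and 34.2 CPM in control libraries A, C and D and 31.4, 44.3 and 21.0 CPM in ischemic libraries A, C and D (log2 fold change -0.91 ± 0.39), with ischemic C above control D. ESAM, an endothelial adhesion molecule, was at 5.39, 4.86 and 5.42 CPM in control libraries A, C and D and 2.27, 2.46 and 2.21 CPM in ischemic libraries A, C and D (log2 fold change -1.18 ± 0.42), and its groups did not overlap. RELN, which lymphatic endothelium secretes, was at 33.3, 41.9 and 22.8 CPM in control libraries A, C and D and 11.3, 17.2 and 21.4 CPM in ischemic libraries A, C and D (log2 fold change -0.98 ± 0.34), also without overlap. PDGFRB, the receptor of pericytes, was at 38.2, 61.9 and 21.1 CPM in control libraries A, C and D and 19.8, 25.8 and 15.7 CPM in ischemic libraries A, C and D, with ischemic C above control D (log2 fold change -1.03 ± 0.39). Without control C the medians of the 3 lists were -0.23, -0.34 and -0.22, and without ischemic C they were -1.09, -1.34 and -1.22.

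The matrix lists also had control C highest and ischemic C second. Of 27 interstitial matrix genes 26 were lower (median -0.72), and of 22 laminin and basement membrane genes 18 were lower (median -0.56). COL4A6 (ENSSSCG00000012571 in the table), a collagen of basement membranes, was at 8.88, 16.3 and 5.42 CPM in control libraries A, C and D and 2.89, 4.31 and 4.03 CPM in ischemic libraries A, C and D (log2 fold change -1.5 ± 0.46), and its groups did not overlap. NID1, which links laminin to type IV collagen, was at 216, 382 and 157 CPM in control libraries A, C and D and 90.1, 211 and 89.7 CPM in ischemic libraries A, C and D (log2 fold change -0.96 ± 0.43), with ischemic C above control D. Of 25 metalloproteases and their inhibitors 20 were lower (median -0.48), among them the stromal protease MMP3, at 187, 438 and 211 CPM in control libraries A, C and D and 87.5, 228 and 67.4 CPM in ischemic libraries A, C and D (log2 fold change -1.14 ± 0.50), where ischemic C exceeded control A and D. The inhibitor TIMP2 had 49.2, 101 and 47.7 CPM against 21.0, 45.5 and 35.8 CPM in the order control and ischemic (log2 fold change -0.98 ± 0.38), and its groups did not overlap. Without control C the medians were -0.16 for the interstitial matrix, -0.041 for laminins and basement membrane and -0.17 for metalloproteases. Without ischemic C they were -1.44, -1.06 and -0.82 in the same order.

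**Figure D3:**
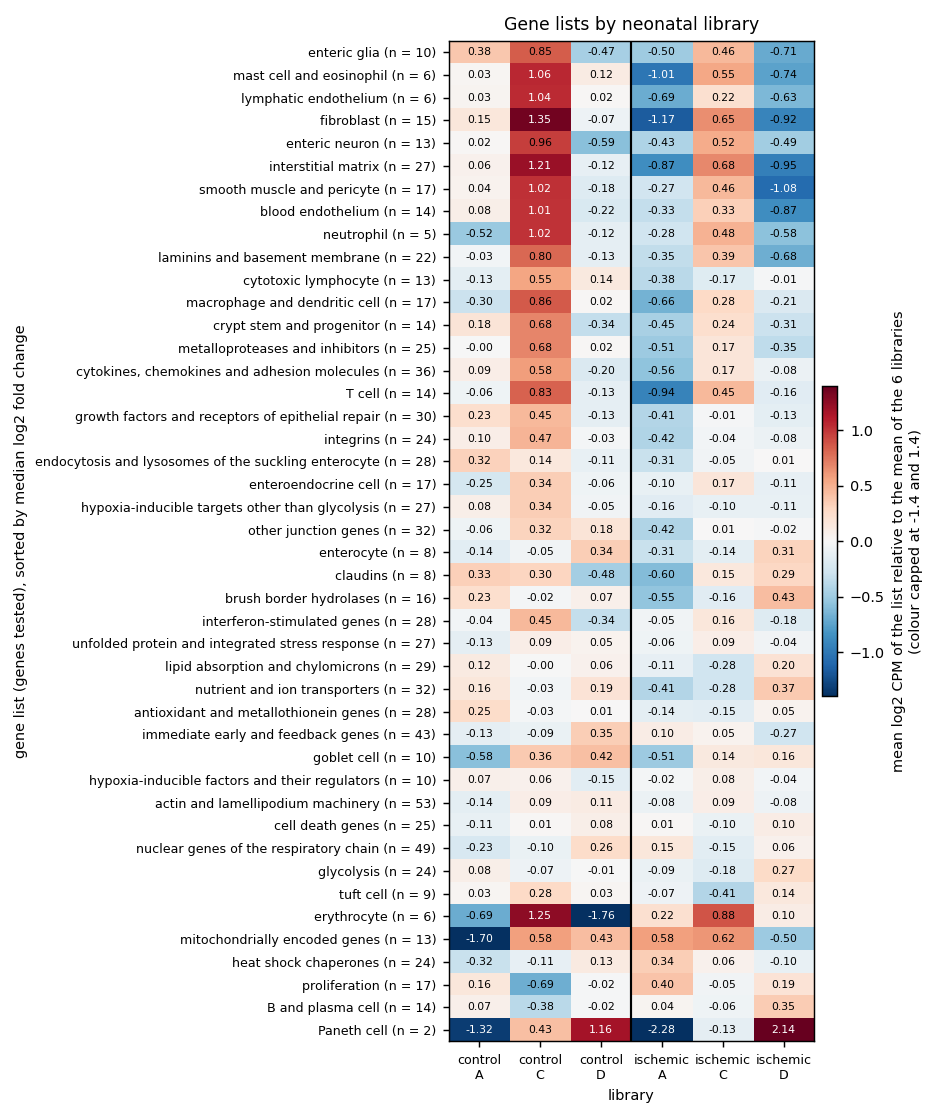
Mean log2 CPM of each gene list in each neonatal library (columns), relative to the mean of the 6 libraries, with lists sorted by their median log2 fold change (red, above the mean; blue, below; colors are capped at -1.4 and 1.4, and the sex-linked list is not drawn). In the fibroblast, smooth muscle, endothelial and matrix lists near the top, control C is highest, ischemic C second, and ischemic A or D lowest.

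The medians of the immune cell lists lay on both sides of 0, and in each list the scores of the groups overlapped. Of 14 T cell genes 13 were lower (median -0.42), and CD28, the costimulatory receptor, was at 5.29, 5.29 and 4.34 CPM in control libraries A, C and D and 1.03, 1.23 and 2.93 CPM in ischemic libraries A, C and D (log2 fold change -1.38 ± 0.51) without overlap. CD3E, a chain of the T cell receptor complex, was at 40.6, 102 and 20.1 CPM in control libraries A, C and D and 16.1, 82.4 and 46.0 CPM in ischemic libraries A, C and D, with control C and ischemic C highest, and gave a log2 fold change of -0.22 ± 0.68. The most abundant member, CD247, the zeta chain of the same complex, was the 1 gene with a log2 fold change above 0, 0.54 ± 0.26, at 66.8, 65.2 and 103 CPM in control libraries A, C and D and 126, 102 and 111 CPM in ischemic libraries A, C and D. Its groups overlapped, and the summed level of the 14 genes was 250.3, 393 and 293 CPM in control against 257, 381 and 286 CPM in ischemic libraries A, C and D. Without control C the median was 0.034 for T cells, -0.14 for macrophages and dendritic cells and -0.45 for mast cells and eosinophils, and -0.19 for cytotoxic lymphocytes. Macrophage and dendritic cell genes were lower for 14 of 17 members (median -0.51), yet SPI1, the transcription factor PU.1 of myeloid and B cells, was at 35.1, 63.5 and 72.6 CPM in control libraries A, C and D and 88.7, 86.1 and 73.5 CPM in ischemic libraries A, C and D (log2 fold change 0.55 ± 0.30), higher in each ischemic library than in any control library. LYVE1 and CD1D were the members with an unadjusted p under 0.05 (1.68% of all genes, in that direction), with log2 fold changes of -1.03 ± 0.45 and -1.07 ± 0.45, and their groups overlapped. Among the 6 lists of immune cells the B and plasma cell genes alone had a median above 0, 0.35, with 11 of 14 members higher, but it was 0.078 without ischemic D and 0.15 without control C. MS4A1, which encodes CD20, was at 495, 303 and 431 CPM in control libraries A, C and D and 428, 489.6 and 654 CPM in ischemic libraries A, C and D (log2 fold change 0.36 ± 0.31). All 6 mast cell and eosinophil genes were lower (median -0.95), with scores of 0.029, 1.06 and 0.12 against -1.01, 0.55 and -0.74 for control and ischemic libraries A, C and D, so that control C was again highest and ischemic C second. Of 13 cytotoxic lymphocyte genes 10 were lower (median -0.54), none with an unadjusted p under 0.05. The groups did not overlap for 3 of them, all lower (2.71% of all genes, in that direction).

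Inflammatory mediators leaned lower in ischemic mucosa. Of 36 cytokines, chemokines and adhesion molecules 29 were lower (median -0.45), 3 with an unadjusted p under 0.05 (1.68% of all genes). The median was -0.10 without control C and -0.19 without ischemic A. CXCL10, a chemokine induced by interferon, was at 17.5, 20.4 and 15.7 CPM in control libraries A, C and D and 13.6, 11.1 and 7.91 CPM in ischemic libraries A, C and D (log2 fold change -0.74 ± 0.32), and its groups did not overlap. PTGS2, the inducible cyclooxygenase, was at 16.8, 10.3 and 20.1 CPM in control libraries A, C and D and 8.25, 11.1 and 6.80 CPM in ischemic libraries A, C and D (log2 fold change -0.88 ± 0.37), with ischemic C above control C. The endothelial selectin SELP had 5.10, 4.86 and 1.63 CPM against 0.619, 3.69 and 0.949 CPM for control and ischemic libraries (log2 fold change -1.61 ± 0.71), with ischemic C above control D and values near the floor of the shallow libraries. Neutrophil genes were sparse, with 5 of 12 measured members tested and all 5 lower (median -0.56, and -0.014 without control C). HBB, the beta chain of hemoglobin, was at 47.6, 166 and 14.6 CPM in control libraries A, C and D and 86.8, 98.4 and 131 CPM in ischemic libraries A, C and D and showed no order by group.

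The glial marker genes GFAP, SOX10 and S100B had at most 12 counts in any neonatal library. GFAP had 8, 3 and 0 counts in control libraries A, C and D and 1, 0 and 3 counts in ischemic libraries A, C and D. SOX10 had 7, 12 and 1 against 1, 3 and 3 counts. S100B had 0 counts in all 12 libraries of the series. Of 16 glial genes 10 were tested, and 9 were lower (median -1.03), but the list holds genes of other cells, and its most abundant member was ERBB3, a neuregulin receptor that enterocytes also express, at 160.1, 163 and 183 CPM in control libraries A, C and D and 81.5, 145 and 249 CPM in ischemic libraries A, C and D. NCAM1, an adhesion molecule of glia and neurons, was at 24.8, 72.1 and 38.0 CPM in control libraries A, C and D and 15.3, 52.3 and 9.49 CPM in ischemic libraries A, C and D (log2 fold change -0.90 ± 0.64), with control C and ischemic C highest. CDH19, a cadherin of glia, was the only member with an unadjusted p under 0.05 (1.68% of all genes, in that direction), with 1.23, 1.72 and 1.08 CPM against 0, 0.615 and 0.396 CPM in the order control and ischemic, which is under the floor in both shallow libraries. At these counts a difference in GFAP or SOX10 was not detectable. S100B could not be compared, and why it had no counts was not tested. Without control C the median of the glial list was -0.45. Of 18 neuronal genes 13 were tested, 10 lower and 3 higher (median -0.73, and -0.092 without control C), and control C again had the highest score.

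The spread between replicates was larger than the difference between the groups for most genes. The standard deviation of log2 CPM among libraries of one group had a median of 0.429, whereas the size of the difference between group means had a median of 0.233. For 77.8% of the genes this within-group SD exceeded the difference, and the difference between the groups accounted for 15.1% of the squared deviations of log2 CPM. The biological coefficient of variation, edgeR's estimate of the spread between replicates beyond counting noise, was 34.5%, compared with 27.8% in the juvenile fit. Each of the 6 libraries was more alike to a library of the other group than to any of its own. The Pearson correlation of log2 CPM across the 14191 genes was 0.966 between control A and ischemic D, 0.965 between control C and ischemic C and 0.954 between control D and ischemic A, whereas correlations within groups ranged from 0.921 to 0.953. These correlations are across genes, which are not independent replicates, and are given as a description.

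Over the lists as a whole, replicates varied about as much as the groups or more. Of the 45 lists, 36 had a median log2 fold change below 0, and for 32 the SD of the score between replicates was larger than the difference between the groups. As for single genes, most lists would also show this if the groups did not differ. In 2 of the 45 lists the scores of the groups did not overlap, integrins and the HIF targets outside glycolysis. With libraries assigned to the groups at random, 10% of scores would be separate in this way, so 2 of 45 is no more than random assignment gives. The fibroblast list had the largest difference of the 45, -0.96, with an SD of 0.88. Control C and ischemic C, the highest in fibroblast score, had 6497353 and 1652066 reads on genes, and the part of depth in the scores was not tested.

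**Figure D4:**
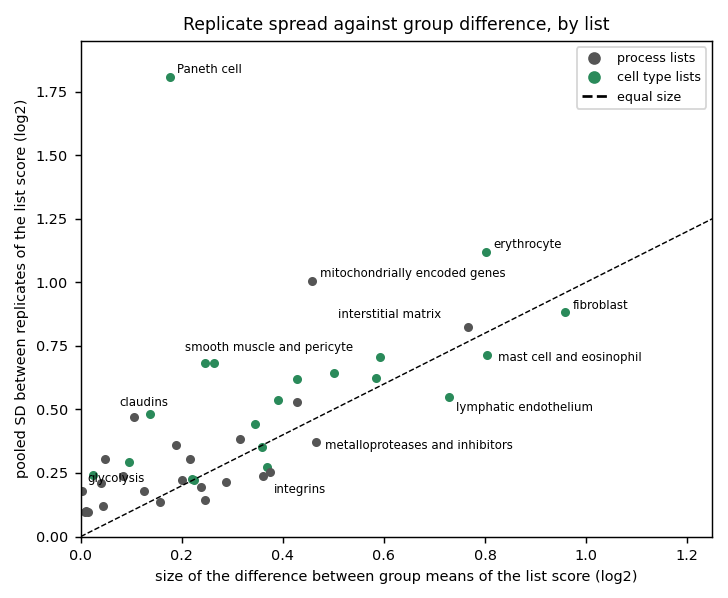
Pooled SD between replicates (vertical) against the size of the difference between group means (horizontal) for the score of each gene list, in log2 units; each point is 1 list, the dashed line marks equal size, and the sex-linked list is not drawn. Most lists lie above the line, where replicates of one group differed more than the groups did.

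The 10 genes with the widest spread between replicates, among genes with a symbol and a mean of at least 20 CPM, included REG3G and genes of 3 kinds. The first were genes of the Y chromosome. DDX3Y, an RNA helicase, was at 0.0945, 0.858 and 348 CPM in control libraries A, C and D and 0.413, 12.3 and 331 CPM in ischemic libraries A, C and D, and ZFY, a zinc finger protein, at 0.0945, 0 and 56.4 CPM in control libraries A, C and D and 0, 1.23 and 80.8 CPM in ischemic libraries A, C and D. Both were high in the libraries marked D and at or near 0 in the others, except for 20 counts of DDX3Y in ischemic C. The second kind were genes that stood out in control D, the library in which the most reads mapped to several places. HEPACAM, a cell adhesion gene of glia and liver, was at 80.9, 161 and 17932 CPM in control libraries A, C and D and 920.2, 56.0 and 16.7 CPM in ischemic libraries A, C and D, and PCMTD2 at 25.2, 23.2 and 1056 CPM in control libraries A, C and D and 95.5, 20.9 and 20.5 CPM in ischemic libraries A, C and D, with control D the highest in both and ischemic A second. Among juvenile libraries HEPACAM was also extreme in 1 library, control C, with 77560 counts, and in that library 46.4% of reads mapped to several places. The part of such reads in these counts was not tested.

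The third kind were short RNAs. Of the 10 genes, 5 carried names of Rfam small RNA families, such as RF00274, at 6.05, 53.8 and 256 CPM in control libraries A, C and D and 246, 105 and 10.2 CPM in ischemic libraries A, C and D. Over the 106 such genes tested, the median log2 CPM relative to the mean of the 6 libraries was -0.741, -0.54 and 0.865 in control libraries A, C and D and 1.05, -0.0966 and -0.326 in ischemic libraries A, C and D. For the 169 genes with transcripts under 600 nt the medians were -0.499, -0.00465 and 0.315 against 0.228, 0.112 and -0.12. Control D and ischemic A were thus the highest and control A the lowest for both, and the histone scores above were also highest in ischemic A and lowest in control A. The part of RNA length in the histone values was not tested.

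The change with ischemia was compared with that of juvenile mucosa in one fit of all 12 libraries. For the difference between the ages, 0 genes had an adjusted p under 0.05 in edgeR's test, and 92 did with DESeq2. An unadjusted p under 0.05 was found for 1443 genes (10.2%), 978 with a lower (6.89%) and 465 with a higher change in neonates (3.28%). The contrast was wide in lists of the lamina propria. Juvenile control C, 1 of the 3 juvenile control libraries behind it, had 1490898 reads on genes, and 46.4% of its reads mapped to several places. Only neonatal libraries were left out in turn, so the part of this library in the juvenile values was not tested. The median log2 fold change of fibroblast genes was -0.85 in neonates, or -0.29 without neonatal control C, and 1.01 in juveniles. For 10 of 15 members the neonatal change was lower at an unadjusted p under 0.05. For smooth muscle and pericyte genes the medians were -0.70 and 0.99 (10 of 17 members), and for HOX genes -0.90 and 1.23 (11 of 18). Over all genes tested this share was 6.89%. The HOX family was picked for its low neonatal change, which is part of this difference, so its count is not independent of that choice. ITGA11 had a log2 fold change of -1.65 ± 0.53 in neonates and 1.5 ± 0.35 in juveniles, a difference of -3.11 ± 0.65 (adjusted p = 0.270), where the neonatal value rested on control C as given above. PTGS2 had -0.88 ± 0.37 and 2.30 ± 0.44, a difference of -3.12 ± 0.61 (adjusted p = 0.270).

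Histone genes had medians of 0.89 in neonates and -0.52 in juveniles, with the neonatal change higher at an unadjusted p under 0.05 for 5 of 14 members (3.28% of all genes). This family was likewise picked for its high neonatal change, so the count is not independent of that choice. Brush border, transporter and fat absorption lists had medians below 0 at both ages, with medians for transporters of -0.13 in neonates and -0.81 in juveniles. For 7 of 32 transporters the neonatal change was higher at that level (also 3.28% of all genes). Proliferation genes had medians of 0.34 and 0.10, and 0 of 17 had an unadjusted p under 0.05 for the difference. Of the 862 genes whose neonatal groups did not overlap, 110 had juvenile groups that were separate in the opposite direction and 136 in the same direction, where 25.1% of all genes had juvenile groups that did not overlap.

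**Figure D5:**
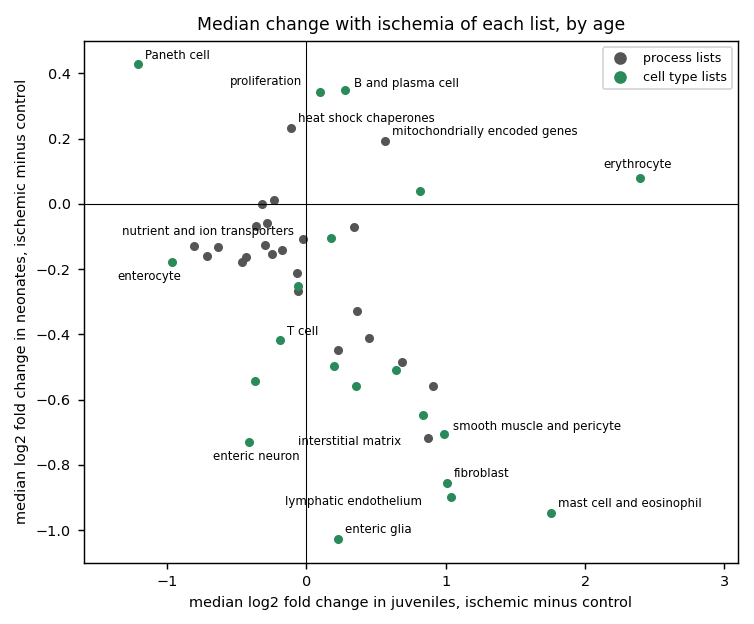
Median log2 fold change with ischemia of each gene list in neonates (vertical) against that in juveniles (horizontal); each point is 1 list (gray, processes; green, cell types; the sex-linked list is not drawn). Stromal and matrix lists lie at the lower right, below 0 in neonates and above 0 in juveniles, while the brush border, transporter and fat absorption lists lie at the left, below 0 at both ages.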

How the data were processed

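Total RNA of mucosal scrapings was sequenced as single-end reads of 75 cycles, with the genome build given as Sscrofa11.1. The authors deposited raw read counts per gene, as 1 table of all libraries (used here) and 1 file per library (used for the reads outside genes), and the aligner, counter and strand setting are not given in the sources used here. All columns matched the description of a library. The summary rows for unassigned reads (36.2% to 50.8% in no gene in the 6 neonatal libraries) stayed out of library sizes. Of the 23909 genes, 14191 passed the filter (over 1 CPM in 2 or more of the 12 libraries) and entered the fit in R 4.3.3 with edgeR 4.0.16 (TMM factors, robust quasi-likelihood test, Benjamini-Hochberg adjustment at 0.05) on the 6 neonatal libraries; the SE is the fold change over the root of F. DESeq2 1.42.0, other scaling factors and filters, 1 fit of all 12 libraries, a replicate block and leaving out each library were the alternatives. Scores used log2 CPM with a prior count of 2. The test was checked on simulated data for the neonatal comparison. With no gene changed, edgeR called 2 genes and DESeq2 17, and 4.97% and 4.92% of genes had an unadjusted p under 0.05. With 200 genes changed at a log2 fold change of 2, edgeR recovered 84.5% and DESeq2 89.5%, and 6.63% and 13.5% of the calls were false.

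Genes named were the 10 per direction with the smallest p among separate groups (symbol, mean of at least 5 CPM), the 10 with the widest replicate spread (at least 20 CPM), and in each list the 3 most abundant members and any with an unadjusted p under 0.05, with the early genes, HIF subunits and glial markers; a pair of genes that the rule names is not reported here. Of 1013 list genes, 937 matched by symbol and 7 by identifier, and 873 were tested. The genes, lists and the choice of these libraries were made with earlier results of these data known. Coordinates are those of the RefSeq annotation.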

Additional observations from a re-analysis of the deposited data

Results flagged for a closer look

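No gene passed the adjusted threshold for a difference between the ages in edgeR's test, but for 10 of the named genes and 1 list the 3 neonatal ischemic libraries all lay below the neonatal controls while the 3 juvenile ischemic libraries all lay above the juvenile controls. Of all 14191 genes tested, 110 were separate in opposite directions at the 2 ages, and some of the named genes had been chosen because their neonatal groups did not overlap. For the genes the difference of the log2 fold changes, neonatal minus juvenile, from edgeR's fit of all 12 libraries was -2.12 for APCDD1, -3.11 for ITGA11, -2.55 for F2RL2, -2.44 for DLL1, -2.98 for COL4A6 (ENSSSCG00000012571), -1.24 for MET, -2.97 for HGF, -2.13 for CD28, -1.95 for ESAM and -2.33 for RELN. The adjusted p of these differences lay between 0.270 and 0.304. For the integrin list the score in ischemic minus control mucosa was -0.361 in neonates and 0.323 in juveniles, a difference of -0.684 that was not tested.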

How the results depend on the processing

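Under every setting tried, 0 genes had an adjusted p under 0.05 for neonatal ischemic against control mucosa. The count at an unadjusted p under 0.05, 327, was 547 in 1 fit of all 12 libraries, 519 with a replicate block and 503 with a length correction and the block together, an alternative chosen after seeing the data, and from 104 to 926 when 1 library was left out. The share of these calls that were higher was 27.2%, and 10.1% to 51.9% without 1 library. The share of genes whose groups did not overlap, 6.07%, was 9.79% to 21.0% with 1 library fewer, where fewer samples make separation easier by construction. For the difference between the ages, DESeq2 called 92 genes and edgeR 0, and the cause was not tested. Of the 226 named genes, 51 had an unadjusted p under 0.05, and 18 to 67 with 1 library left out. Deviations of same-letter libraries correlated at -0.031, 0.493 and -0.139 for A, C and D, whereas control A and D went better with ischemic D and A (0.357 and 0.254). The letters were therefore not taken as pairs in the main fit. These correlations also follow library composition, so they cannot decide whether a letter marks 1 pig. The Y chromosome genes DDX3Y and ZFY were high in both D libraries alone. DDX3Y had 641 counts in control D and 4190 in ischemic D but 1 in control A, so control A and ischemic D were unlike in it. Within letters A, C and D the fibroblast score of ischemic minus control mucosa was -1.32, -0.706 and -0.851. Under the replicate block COL3A1, COL1A2, KIT and others came under an unadjusted p of 0.05, and histone genes under it went from 5 to 3. PTGS2, SELP, MET, NCKAP1 and CDH19 lost it. Their log2 fold changes were -0.869, -1.38, -0.689, -0.595 and -2.17 under the block, against -0.875, -1.61, -0.676, -0.604 and -2.13 in the main fit. Of 180 list medians under other settings 179 stayed within the spread between replicates and 1 moved, and of 270 without 1 library 24 moved. No named gene with an unadjusted p under 0.05 turned its direction, but genes of wide spread without such a p did, such as HEPACAM (-4.19, up to 1.43), REG3G (1.75, down to -1.83) and PCMTD2 (-2.99, up to 0.893). The shallow libraries, with floors of 1.47 and 1.82 CPM, limit what can be said of genes such as those of glia.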

Other observations

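Among families of at least 10 genes that share the opening letters of their symbol, a grouping made after values had been seen, the highest medians after the histones were those of CEP, PRPF and RAD genes, the last at 0.27. CEP genes, which encode centrosomal proteins, were higher in ischemic mucosa for 27 of 34 members (median log2 fold change 0.29), and the groups did not overlap for 5, all higher (3.37% of all genes). The CEP score was highest in ischemic A, at 0.41, and that of control D (0.0058) lay above that of ischemic D (-0.090), so the groups overlapped. PRPF genes, which encode splicing factors, were higher for 12 of 12 members, with a median of 0.28 and 1 member without overlap (also 3.37%). Their scores were -0.38, -0.26 and 0.24 in control libraries A, C and D and 0.36, 0.0089 and 0.022 in ischemic libraries A, C and D, so control D lay among the ischemic libraries. CCL chemokines were lower for 13 of 13 members (median -0.50), none with an unadjusted p under 0.05 or without overlap, and control C had the highest score, 0.99.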
